A study of Homo sapiens with 9 samples.

Results

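The circadian clock of mammalian cells is a transcriptional feedback loop. BMAL1 and CLOCK form a heterodimer that binds E-box sequences and switches on the PER and CRY genes, and the PER and CRY proteins return to the nucleus to repress that heterodimer. A connecting loop sets the level of BMAL1 itself: RORA and RORB activate, and NR1D2 (REV-ERB beta) represses, through the ROR response element (RORE), while DBP is an output factor that acts on D-box sequences. The 10 genes described here, BMAL1, CLOCK, PER2, PER3, CRY1, CRY2, RORA, RORB, NR1D2 and DBP, were represented by 15 probe sets among 22215 probe sets tested, which gave 11963 genes a probe set of their own. All probe sets annotated to these symbols alone were taken. The genes were chosen by their measured log2 differences in the 3 comparisons between treatment groups, so the values of these comparisons are given as a description, with no p-value for a gene. Counts past a threshold are set there beside the share over all probe sets and support nothing.

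Transcripts were measured on 9 Affymetrix arrays hybridised with biotin-labelled material made from total RNA of U251 cells (U251MG), an established human malignant glioma line. WT1, which encodes a transcription factor with zinc fingers, was targeted by siRNA in 1 group. A control group was given a scrambled siRNA, meant to target no gene. Both siRNAs were given at 100 nM with the transfection reagent Oligofectamine, and the third group received Oligofectamine alone, so that every culture of the series was exposed to the reagent. Further medium was added 4 h after transfection. The cells had been plated in triplicate wells for each condition, and each group had 3 cultures numbered 1 to 3, which the series' design calls biological triplicates. The labels state neither the hour at which each culture was lysed, nor the time from transfection to lysis, nor whether a number stands for a day. P-values of the group comparisons therefore set a difference against the spread between these cultures, after differences shared by a number were removed. In RNA from whole cultures, fewer cells expressing a gene and less RNA per cell cannot be told apart.

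RORB and BMAL1 were the clock genes whose WT1 siRNA cultures all lay above every control culture. On the brighter of its probe sets, but not on the dim one, PER2 was lower in the scrambled siRNA cultures than in either other group. CRY1 and NR1D2 differed mainly between culture numbers, whatever the cultures had received, and DBP was lowest in number 2 of every group. For RORA, CRY2 and PER3 no difference between groups exceeded 0.14 on the log2 scale.

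The upstream sequences of these genes are shown because the arms of the loop meet in them. RefSeq promoter windows on GRCh38.p14 were found for 10 of 10 genes, 16 windows in all since several genes have more than 1 annotated start, and the 250 bases before each start were searched on both strands. NR1D2 is shown first because its window on chr3:23945871-23946120 (plus strand) held motifs of all 3 arms. Capitals mark, from left to right, a D-box on the minus strand, an E-box, a RORE core on the minus strand and another E-box, and the last base lies next to the annotated start.
NR1D2: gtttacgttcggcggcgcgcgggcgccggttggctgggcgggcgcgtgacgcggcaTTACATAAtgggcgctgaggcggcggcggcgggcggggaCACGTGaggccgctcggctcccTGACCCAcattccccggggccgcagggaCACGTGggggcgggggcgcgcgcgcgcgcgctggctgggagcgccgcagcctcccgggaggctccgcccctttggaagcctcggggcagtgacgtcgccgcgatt
The stretches below, of 60 bases, are shown for CRY1 (chr12:107093606-107093665, minus strand), CRY2 (chr11:45847260-45847319, plus strand) and PER2 (chr2:238288775-238288834, minus strand), the repressors whose windows held the E-box variant called E-prime, in capitals.
CRY1: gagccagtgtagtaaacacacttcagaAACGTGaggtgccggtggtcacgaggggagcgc
CRY2: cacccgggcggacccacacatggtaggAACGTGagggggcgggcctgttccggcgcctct
PER2: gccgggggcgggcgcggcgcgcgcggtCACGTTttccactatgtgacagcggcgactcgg
The windows of RORB (chr9:74497085-74497334, plus strand) and BMAL1 (chr11:13277540-13277789, plus strand) are shown because these were the genes whose WT1 siRNA arrays lay above all control arrays. They carry no capitals because none of the motifs searched was found in these 250 bases. The 50 bases after each start were not searched, so a site there or across the start would be missed. A site spelled otherwise than the letters searched would be missed too, so these windows are not shown to lack such elements.
RORB: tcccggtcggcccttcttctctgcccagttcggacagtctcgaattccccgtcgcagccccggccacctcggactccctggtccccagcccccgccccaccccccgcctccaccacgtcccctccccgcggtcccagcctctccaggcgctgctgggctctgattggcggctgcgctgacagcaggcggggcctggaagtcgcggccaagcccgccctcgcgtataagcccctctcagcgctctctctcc
BMAL1: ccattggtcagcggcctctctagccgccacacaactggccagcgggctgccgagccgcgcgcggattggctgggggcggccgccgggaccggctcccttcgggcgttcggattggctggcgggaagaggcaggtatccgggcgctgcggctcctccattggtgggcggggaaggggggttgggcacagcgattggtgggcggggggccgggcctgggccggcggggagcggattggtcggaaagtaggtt

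Read over the 16 windows, the E-box CACGTG was present in 1 window, that of NR1D2, and in 6.34% of 35116 promoter windows of all genes. The E-prime box CACGTT was present in 4 windows of 4 genes (CLOCK, CRY1, CRY2 and PER2) and in 4.55% of all windows. The RORE core, TAGGTCA or TGGGTCA, was present in 3 windows (CLOCK, CRY2 and NR1D2) and in 4.82% of all windows. The D-box, TTATGTAA or TTATGCAA or TTACGTAA, was present in 2 windows (PER3 and NR1D2) and in 1.72% of all windows. The core GCGTGGG that WT1 and the EGR factors share was present in 0 of the 16 windows and in 6.19% of all windows. In NR1D2 the E-boxes began 155 and 105 bases before the start, with the RORE core between them at 133 to 127 bases before it. A match is a run of letters, and its absence says only that these letters are not in these windows. The second start of RORB (chr9:74615284-74615533) and of BMAL1 (chr11:13276402-13276651) also held no match.

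The WT1 transcript was checked first. Its brighter probe set, 206067_s_at, read 4.76, 5.09 and 4.82 with the WT1 siRNA (numbers 1, 2 and 3), 5.59, 5.89 and 5.41 with the scrambled siRNA and 6.05, 6.58 and 5.89 with reagent. It was 1.67-fold lower with the WT1 siRNA than with the scrambled siRNA (−0.74 ± 0.0811 SE, limma adjusted p = 0.00336) and 2.44-fold lower than with reagent (−1.29 ± 0.0811, adjusted p = 0.000619), and the scrambled siRNA group was in turn 1.46-fold below reagent (−0.55 ± 0.0811, adjusted p = 0.0164). With the WT1 siRNA this probe set lay as low as percentile 18.4 of an array, among dim probe sets, so these folds may be lower bounds. The dimmer probe set 216953_s_at overlapped between groups. All 6 of 6 glioma and astrocyte markers were measured, with VIM at 13.57 to 13.71, and S100B was dim on 8 arrays. GFAP varied most, from 5.36 to 9.25. It read 5.84 to 6.96 in number 1, 5.36 to 6.68 in number 2 and 7.99 to 9.25 in number 3. Its groups overlapped over all arrays, but within numbers 2 and 3 reagent was the highest. In number 2 GFAP read 5.36 with the WT1 siRNA, 5.54 with the scrambled siRNA and 6.68 with reagent. In number 3 it read 8.13, 7.99 and 9.25 in the same order. Of 9 markers of other cells, 8 were measured. PTPRC, CD14, CDH5 and EPCAM lay in the lowest 30% of probe sets on all 9 arrays. MBP did so on 6 arrays. PECAM1 (5.44 to 5.83), SYP (5.27 to 5.43) and KRT18 (9.80 to 10.65) did so on 0 arrays. The summed level of these 8 was 10.14 to 10.63 with the WT1 siRNA, 10.61 to 10.84 with the scrambled siRNA and 10.60 to 10.67 with reagent. This sum followed KRT18, which read 9.80 to 10.40, 10.38 to 10.65 and 10.38 to 10.47 in these groups, whereas the other 7 summed to 7.75 to 7.88 on all arrays. The part of KRT18 and GFAP in the results below was not tested. Array medians lay between 6.45 and 6.53, and the number of arrays limits the precision.

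**Figure D1:**
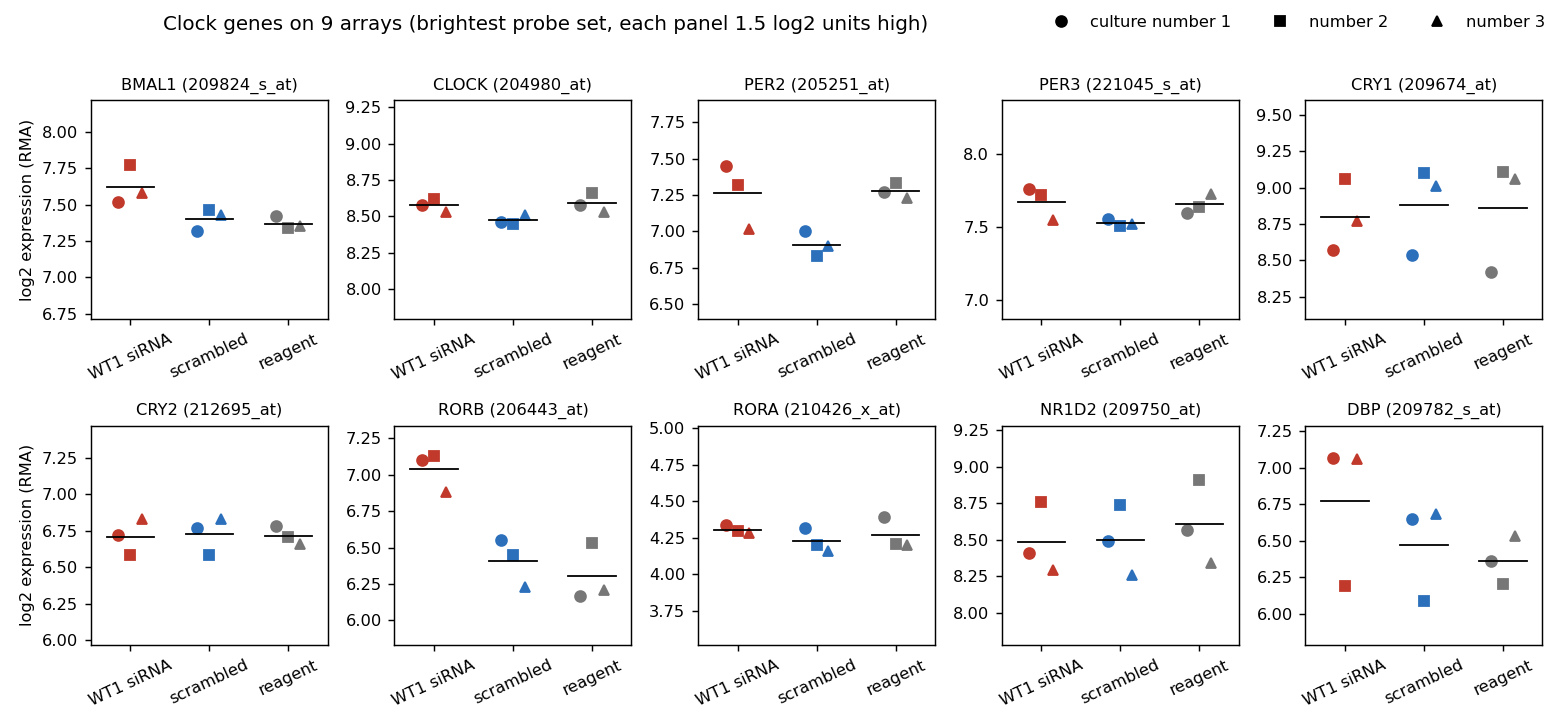
Log2 expression of the brightest probe set of each clock gene (vertical axis, each panel spanning the same range) in the 3 groups (horizontal axis); points are single arrays, shapes give culture numbers and horizontal bars group means (n = 3 arrays). The 3 RORB arrays with the WT1 siRNA, at 6.88 to 7.13, lie above all 6 control arrays, while CRY1 and NR1D2 separate by shape and not by group.

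BMAL1 encodes a partner of the activator heterodimer and was measured by a pair of probe sets. On 210971_s_at it read 6.33, 6.42 and 6.30 with the WT1 siRNA, 6.04, 5.96 and 6.04 with the scrambled siRNA, and 5.98, 5.84 and 5.93 with reagent. All 3 arrays with the WT1 siRNA were higher than all 6 control arrays, and the control groups overlapped. The mean was 1.26-fold higher than with the scrambled siRNA (log2 difference 0.33 ± 0.0646 SE, and 0.29, 0.45 and 0.26 within numbers 1, 2 and 3) and 1.35-fold higher than with reagent (0.43 ± 0.0646, and 0.36, 0.57 and 0.36). The scrambled siRNA and reagent differed by 0.10 ± 0.0646. The brighter probe set 209824_s_at had the same order with smaller steps: 7.62 ± 0.133 (SD, n = 3) with the WT1 siRNA, 7.40 ± 0.0746 with the scrambled siRNA and 7.37 ± 0.0424 with reagent. Its WT1 siRNA arrays, 7.52, 7.77 and 7.58, were again all above the control arrays, which ran from 7.32 to 7.46. The log2 difference on it was 0.22 ± 0.0719 against the scrambled siRNA and 0.25 ± 0.0719 against reagent.

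CLOCK, the DNA-binding partner of BMAL1, stayed within a narrow band on its bright probe set 204980_at. It read 8.58, 8.62 and 8.53 with the WT1 siRNA, 8.46, 8.45 and 8.51 with the scrambled siRNA, and 8.58, 8.66 and 8.53 with reagent. The scrambled siRNA arrays were the lowest and overlapped with neither other group, although the log2 differences were small, 0.10 ± 0.0604 for the WT1 siRNA against them and −0.11 ± 0.0604 for them against reagent. The WT1 siRNA and reagent groups overlapped and differed by −0.01. The dim probe set 217563_at read 4.59 to 5.00 over all arrays, and its groups overlapped in every comparison.

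PER2, a repressor and itself a target of the heterodimer, had its lowest readings with the scrambled siRNA. On 205251_at it read 7.45, 7.32 and 7.02 with the WT1 siRNA, 7.00, 6.83 and 6.90 with the scrambled siRNA, and 7.27, 7.33 and 7.23 with reagent. Every scrambled siRNA array was below every array of both other groups. The mean with the scrambled siRNA was 77.7% of that with reagent (−0.36 ± 0.0853, and −0.26, −0.50 and −0.33 within numbers). The WT1 siRNA group was 1.27-fold above the scrambled siRNA (0.35 ± 0.0853), by 0.45 and 0.48 in numbers 1 and 2 and by 0.12 in number 3. It overlapped with reagent, from which it differed by −0.01 ± 0.0853. PER2 with the WT1 siRNA thus stood above the scrambled siRNA control and overlapped with the reagent control. A dim second probe set, 208518_s_at, read 4.38 to 4.89 with no difference between groups above 0.02.

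PER3, the paralog of PER2, also had its lowest mean with the scrambled siRNA. Its probe set 221045_s_at read 7.76, 7.72 and 7.55 with the WT1 siRNA, 7.56, 7.51 and 7.52 with the scrambled siRNA, and 7.60, 7.64 and 7.73 with reagent. The scrambled siRNA arrays were all below reagent (−0.12 ± 0.0722), and the WT1 siRNA overlapped with both (0.14 ± 0.0722 and 0.02 ± 0.0722).

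The CRY genes encode the partners of the PER proteins that repress the heterodimer. CRY1 (209674_at) read 8.57, 9.06 and 8.77 with the WT1 siRNA, 8.54, 9.10 and 9.01 with the scrambled siRNA, and 8.42, 9.11 and 9.06 with reagent. The groups overlapped throughout, with differences of −0.09, −0.06 and 0.02, and in every group the lowest array was number 1. CRY2 (212695_at) read 6.58 to 6.83 over all 9 arrays, and its group means were 6.71, 6.73 and 6.71.

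Among the nuclear receptors of the connecting loop, RORB had the greatest difference of the 10 genes. Its probe set 206443_at read 7.10, 7.13 and 6.88 with the WT1 siRNA, 6.55, 6.45 and 6.23 with the scrambled siRNA, and 6.17, 6.53 and 6.21 with reagent. The 3 WT1 siRNA arrays were above all control arrays, and the control groups overlapped. Its mean was 1.54-fold higher than with the scrambled siRNA (0.63 ± 0.0854, and 0.55, 0.68 and 0.64 within numbers) and 1.66-fold higher than with reagent (0.73 ± 0.0854, and 0.93, 0.60 and 0.66). The scrambled siRNA and reagent differed by 0.11 ± 0.0854, with 0.38 in number 1 and −0.08 and 0.02 in numbers 2 and 3.

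RORA, which acts on the same element as RORB, was dim. Its probe sets read 4.16 to 4.39 (210426_x_at) and 3.92 to 4.10 (210479_s_at), which placed them between percentiles 3.50 and 10.6 of all probe sets on an array. Group differences ran up to 0.08, on probe sets among the dimmest of the chip. NR1D2 (209750_at), the opposing repressor, read 8.41, 8.76 and 8.29 with the WT1 siRNA, 8.49, 8.74 and 8.26 with the scrambled siRNA, and 8.57, 8.91 and 8.34 with reagent. Reagent was the highest group within every number, and the groups overlapped. The log2 differences were −0.01, −0.12 and −0.11 in the order used above, each ± 0.0581.

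DBP, the output factor, had the widest spread of the 10 genes within a group. Its brighter probe set 209782_s_at read 7.07, 6.19 and 7.06 with the WT1 siRNA, 6.65, 6.09 and 6.68 with the scrambled siRNA, and 6.36, 6.20 and 6.53 with reagent. The mean with the WT1 siRNA was above the scrambled siRNA by 0.30 ± 0.114 and above reagent by 0.41 ± 0.114. The excess over reagent was 0.71 in number 1 and 0.53 in number 3, but −0.01 in number 2, and the groups overlapped. The second probe set 209783_at read 5.46 to 6.11 and gave 0.09 ± 0.104 and 0.14 ± 0.104.

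**Figure D2:**
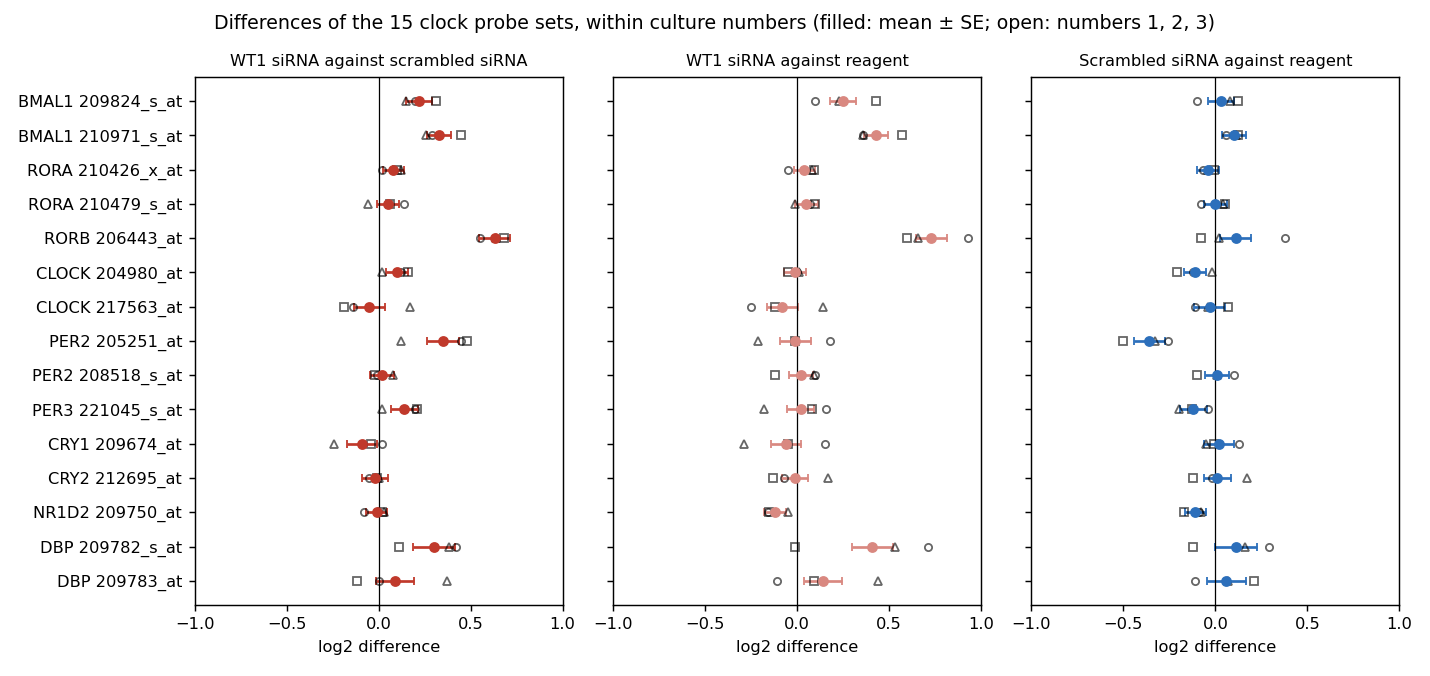
Log2 differences (horizontal axis) of the 15 clock probe sets (vertical axis) in the 3 group comparisons; filled points with bars are the fitted difference ± SE, and open symbols the difference within each culture number. RORB and both BMAL1 probe sets lie to the right of 0 in the first and second panels for every number, and PER2 205251_at lies to the left of 0 in the third.

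Counted together, 2 of the 15 probe sets (RORB and BMAL1 210971_s_at, both higher) had a limma adjusted p under 0.05 with the WT1 siRNA against the scrambled siRNA, where 3.27% of all probe sets did. The same 2 passed against reagent, where 1.25% did. With the scrambled siRNA against reagent 0 of 15 passed, and 1 had an unadjusted p under 0.05; 1.09% of all probe sets passed. Without the culture number as a block, 0 of the 15 passed in each of the 3 comparisons, and over all probe sets 4, 0 and 1 did, against 726, 277 and 242 with it. The groups did not overlap for 5 of the 15 against the scrambled siRNA (all higher, from BMAL1, RORB, CLOCK and PER2), where 6.67% of all probe sets did not overlap. They did not for 3 against reagent (RORB and both of BMAL1, all higher), where the share was 5.50%. For the scrambled siRNA against reagent 3 did not (PER2, PER3 and CLOCK, all lower), where it was 5.26%. These counts follow from how the genes were chosen, and the comparisons share arrays with one another. The median difference over the 15 was 0.09, 0.02 and 0.01, beside 0.00, 0.01 and 0.01 over all probe sets.

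These differences and counts depended on single arrays to different degrees. Over 18 alternative fits RORB differed by 0.57 to 0.71 from the scrambled siRNA and by 0.61 to 0.81 from reagent. BMAL1 210971_s_at differed by 0.27 to 0.37 and by 0.36 to 0.47 over its 17 fits. At the threshold RORB passed in 15 of 18 fits against the scrambled siRNA and in 14 of 18 against reagent. BMAL1 210971_s_at passed in 8 of 17 and 9 of 17, and BMAL1 209824_s_at in 0 of 17 in both. PER2 205251_at differed by 0.28 to 0.46 between the WT1 siRNA and the scrambled siRNA, with the highest value without WT1 siRNA culture 3 or without all cultures of number 3. The count of 2 against the scrambled siRNA became 1 without scrambled siRNA culture 1 or 3 or WT1 siRNA culture 2, and 0 without scrambled siRNA culture 2. Against reagent it became 1 without reagent culture 1 or 3 or WT1 siRNA culture 2, and 0 without reagent culture 2. For the scrambled siRNA against reagent the count became 1, PER2, without WT1 siRNA culture 3.

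The culture numbers gave contrasts other than the comparisons by which the genes were chosen. Since the genes were chosen with earlier results of the same 9 arrays known, the p-values of these contrasts set a difference against the spread between cultures and are not independent evidence. Each number occurs once and holds 1 array of each group, so the arrays of a number are differently treated cultures and not repeats of that number. These p-values therefore cannot say whether a difference would recur in further sets of cultures. Number 1 against numbers 2 and 3, and number 2 against number 3, were fitted with the treatment group as a term. Over all probe sets 41.4% passed in the first and 21.9% in the second, so that shares of this size among clock genes were the background. Numbers also differed in how much brighter the 3' end of a control transcript was than its 5' end. For actin the log2 difference between the ends was 0.05 to 0.09 in number 1, 0.55 to 0.68 in number 2 and 0.26 to 0.50 in number 3, whereas the groups overlapped in it (0.08 to 0.55, 0.05 to 0.68 and 0.09 to 0.62). For GAPDH it was −0.02 to −0.01, 0.16 to 0.18 and 0.10 to 0.11 in numbers 1, 2 and 3. The part of this difference, and of GFAP, which was highest in number 3, in the differences between numbers was not tested.

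CRY1 fell in number 1. Its 3 arrays of number 1, 8.42 to 8.57, were all below the 6 arrays of the other numbers, 8.77 to 9.11. The log2 difference was −0.51 ± 0.0696 SE, or 1.42-fold lower (limma adjusted p = 0.000413), and −0.35, −0.51 and −0.67 within the WT1 siRNA, scrambled siRNA and reagent groups. It passed in 14 of 14 alternative fits. The sequence of its E-prime box is printed above, and no relation between motif and level was tested. CRY2 did not pass, with 0.06 ± 0.0622.

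NR1D2 was higher in number 2 than in number 3. The 3 arrays of number 2 read 8.74 to 8.91 and those of number 3 read 8.26 to 8.34, with number 1 between them at 8.41 to 8.57. The difference was 0.50 ± 0.0581, or 1.42-fold (limma adjusted p = 0.000425), and 0.47, 0.48 and 0.57 within the 3 groups. It passed in 14 of 14 alternative fits. Number 1 against numbers 2 and 3 gave −0.06 ± 0.0503 and did not pass.

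DBP went the other way. On 209782_s_at number 2 read 6.09 to 6.20 and number 3 read 6.53 to 7.06, with no overlap. The difference was −0.59 ± 0.114, so that number 2 was 1.51-fold lower (limma adjusted p = 0.00559), and −0.87, −0.60 and −0.32 within the WT1 siRNA, scrambled siRNA and reagent groups. It passed in 13 of 13 alternative fits, with adjusted p up to 0.0421. Its second probe set 209783_at was also lower in number 2 in every group (−0.28 ± 0.104) but did not pass (adjusted p = 0.0833).

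The dim PER2 probe set 208518_s_at differed between all 3 numbers. In number 1 it read 4.79 to 4.89, in number 2 4.59 to 4.71 and in number 3 4.38 to 4.47, without overlap. It was 0.33 ± 0.0561 higher in number 1 than in numbers 2 and 3 (limma adjusted p = 0.00130, 12 of 12 alternative fits) and 0.22 ± 0.0648 higher in number 2 than in number 3 (adjusted p = 0.0387). The second call held in 7 of 12 fits and was lost without number 2 of any group or number 3 of either control, with adjusted p up to 0.193. The brighter PER2 probe set did not share it: it gave 0.14 ± 0.0739 and 0.11 ± 0.0853, and passed in neither.

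RORB leaned the same way as NR1D2 between numbers 2 and 3, by 0.26 ± 0.0854 with 3 of 3 groups higher in number 2, but did not pass (limma adjusted p = 0.0565; it passed in 4 of 14 alternative fits). Both BMAL1 probe sets, both CLOCK probe sets, PER3, CRY2 and RORA passed in neither number comparison. In all, 2 of 15 probe sets passed for number 1 against numbers 2 and 3 and 3 of 15 for number 2 against number 3 beside the 41.4% and 21.9% of all probe sets, so these counts are no result about the clock genes as a group. Without WT1 siRNA culture 3 the former count was 4. The median difference over the 15 was 0.04 and 0.05, beside 0.03 and 0.02 over all probe sets.

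**Figure D3:**
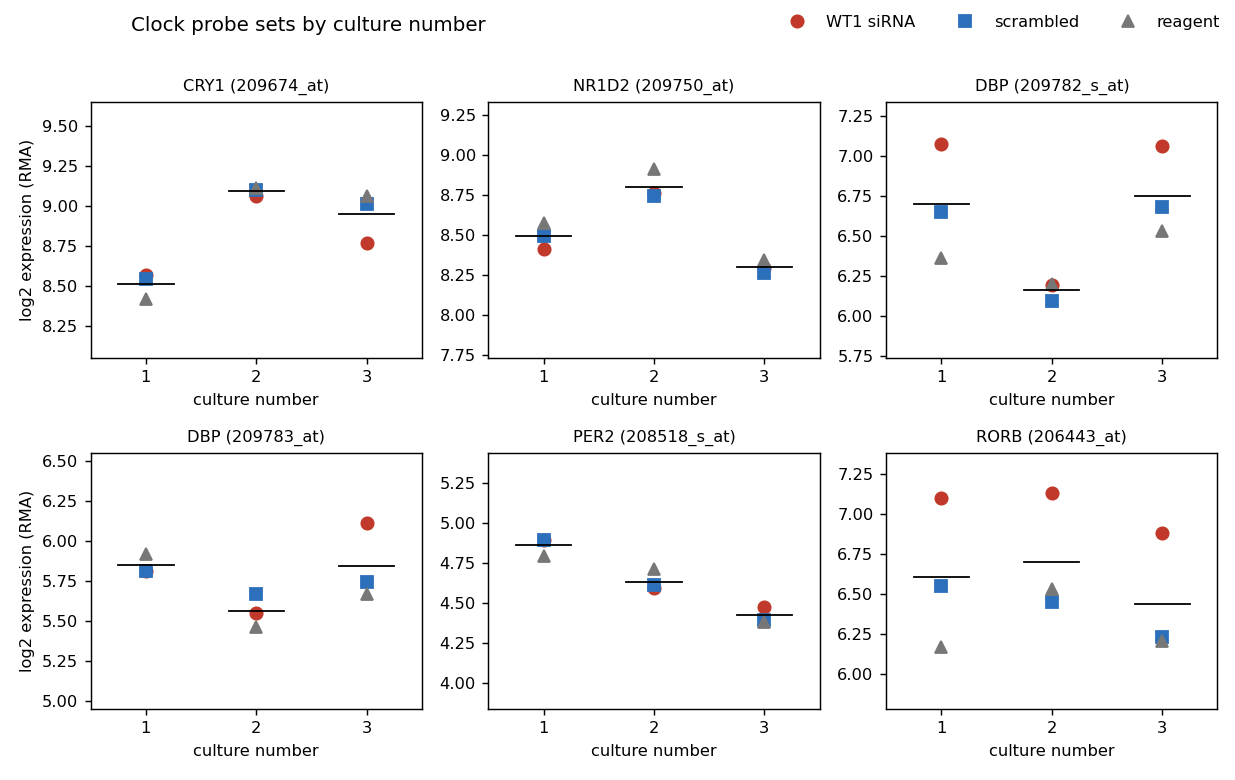
Log2 expression (vertical axis) of 6 clock probe sets by culture number (horizontal axis); colours and shapes give the group of each array and bars the mean over the 3 groups. The 3 arrays of CRY1 lie lowest in number 1, those of NR1D2 highest in number 2 and those of DBP 209782_s_at lowest in number 2, whereas RORB separates the WT1 siRNA from the controls in every number.

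The probe sets differed in where their spread lay. Of the sum of squares over the 9 arrays, 93.7% lay between groups for BMAL1 210971_s_at, 84.9% for RORB, 69.6% for BMAL1 209824_s_at, 68.6% for PER2 205251_at and 61.1% for CLOCK 204980_at. Between culture numbers lay 93.9% for PER2 208518_s_at, 92.1% for NR1D2 and 89.7% for CRY1. With the sums of squares of all probe sets pooled, 15.6% lay between groups and 71.4% between numbers. The most variable probe sets weigh most in these pooled shares, which are not those of a typical probe set. The number shares of RORA were 65.5% on 210426_x_at and 50.8% on 210479_s_at. Those of DBP were 61.0% on 209782_s_at and 53.4% on 209783_at. CRY2 had 55.2% and CLOCK 217563_at 44.4%. All of these were below the pooled share. PER3 was divided between groups (50.6%) and the rest (46.0%). The probe sets of PER2 differed from each other in this, as did those of CLOCK. The group shares come from the values that chose the genes and are given as a description.

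**Figure D4:**
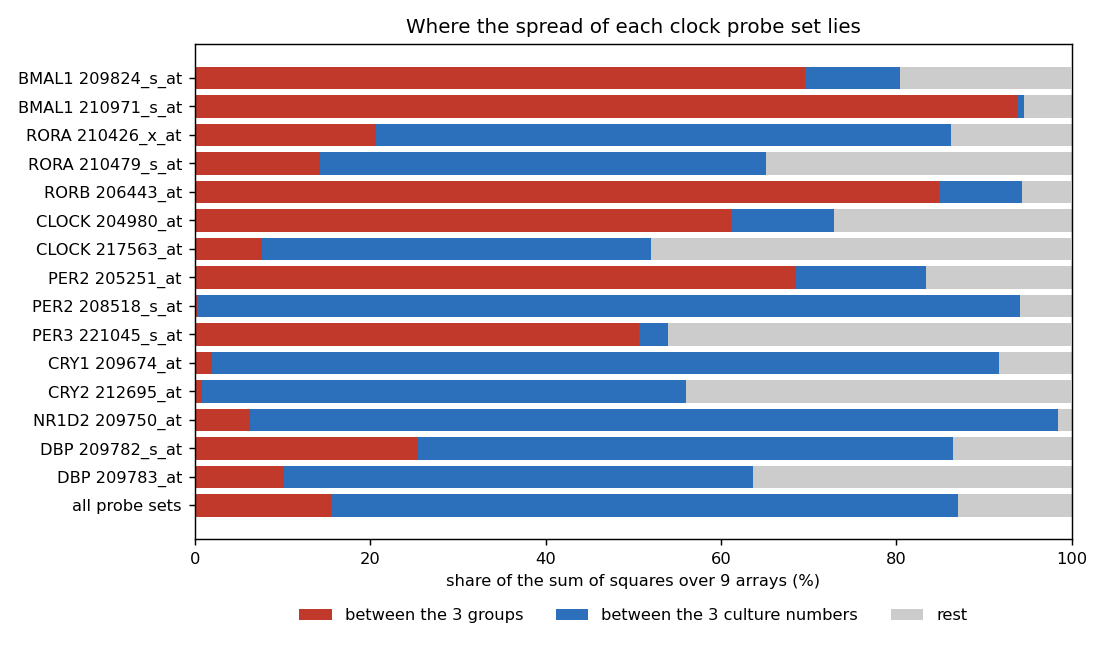
Share of each clock probe set's sum of squares over the 9 arrays (horizontal axis, percent) that lay between the 3 groups, between the 3 culture numbers and in the rest. The lowest bar pools the sums of squares of all probe sets. The bars of BMAL1, RORB and PER2 205251_at are mostly between groups (68.6% to 93.7%), and those of CRY1, NR1D2 and PER2 208518_s_at mostly between numbers (89.7% to 93.9%).

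Other genes of the clock were read from lists of 49 genes, of which 40 had a probe set of their own. PER1 and NR1D1 were present only on probe sets shared by several genes, and the remaining listed genes were not analysed here. Each gene was read from its brightest probe set. Genes at an adjusted p under 0.05 made up 3.70% of all 11963 genes for the WT1 siRNA against the scrambled siRNA, 1.40% against reagent and 1.21% for the scrambled siRNA against reagent.

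Of the paralogs and repressors of the core loop, 0 of 9 measured passed limma's test in any of the 3 group comparisons, and 5, 3 and 0 had an unadjusted p under 0.05. NPAS2, which can replace CLOCK, differed by 0.21 ± 0.0621 with the WT1 siRNA against the scrambled siRNA and by 0.09 ± 0.0621 against reagent. BMAL2, the paralog of BMAL1, differed by −0.28 ± 0.0870 and −0.22 ± 0.0870, opposite in sign to BMAL1. NFIL3, which competes with DBP for the D-box, differed by 0.27 ± 0.0834 and 0.25 ± 0.0834. The adjusted p of these genes was 0.114 to 0.528. BHLHE41, an E-box repressor, differed by 0.18 and 0.13, its paralog BHLHE40 by 0.00 and −0.01, and the DBP relatives TEF and HLF by 0.15 and 0.00 against the scrambled siRNA and by 0.17 and −0.08 against reagent. TIMELESS and its partner TIPIN differed by 0.01 and −0.17 against the scrambled siRNA and by −0.06 and −0.21 against reagent.

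Reported clock outputs gave the calls that there were, 2 of 9 against the scrambled siRNA and 1 of 9 against reagent. WEE1, a kinase that holds back entry into mitosis, read 10.49, 10.43 and 10.10 with the WT1 siRNA, 9.83, 9.85 and 9.64 with the scrambled siRNA, and 9.94, 10.06 and 9.98 with reagent. All WT1 siRNA arrays were above all control arrays, and all scrambled siRNA arrays were below all reagent arrays (−0.22 ± 0.0790). WEE1 rose by 0.57 ± 0.0790 against the scrambled siRNA, 1.48-fold (limma adjusted p = 0.00752, higher in 3 of 3 numbers). Against reagent it differed by 0.35 ± 0.0790 and did not pass (adjusted p = 0.0734), although its second probe set 215711_s_at did (0.42 ± 0.0642, adjusted p = 0.0203). KLF10, a zinc finger factor under clock control, read 8.91, 9.73 and 9.38 with the WT1 siRNA, 9.34, 10.19 and 10.01 with the scrambled siRNA, and 9.14, 10.05 and 9.89 with reagent. It was lower with the WT1 siRNA within every number, while the groups overlapped because number 1 was low throughout. KLF10 fell by 0.51 on the log2 scale against the scrambled siRNA (SE 0.0677, limma adjusted p = 0.00644) and by 0.35 against reagent (SE 0.0677, adjusted p = 0.0424). Without scrambled siRNA culture 2 the adjusted p against the scrambled siRNA was 0.0662 for WEE1 and 0.0537 for KLF10, and the call of KLF10 against reagent was lost without any 1 of the 6 control cultures or without WT1 siRNA culture 2 or 3. KLF9, the paralog of KLF10, passed against the scrambled siRNA on 203542_s_at (0.40 ± 0.0818, adjusted p = 0.0341) but not on its brightest probe set 203543_s_at (0.25 ± 0.178, adjusted p = 0.557).

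Clock kinases (7 measured), ubiquitin enzymes of clock proteins (6) and coregulators (9) gave 0 calls by limma in the 3 group comparisons. At an unadjusted p under 0.05 there were 1, 1 and 0 against the scrambled siRNA, 2, 0 and 1 against reagent, and 0, 0 and 0 for the scrambled siRNA against reagent. Over the 40 genes, 2 passed against the scrambled siRNA, 1 against reagent and 0 for the scrambled siRNA against reagent, where 3 had an unadjusted p under 0.05. The median difference over the 40 was 0.00, 0.02 and −0.01. Without the culture number as a block, 0 of the 40 passed in each comparison.

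Between culture numbers, 20 of the 40 passed for number 1 against numbers 2 and 3, beside 43.2% of all genes. For number 2 against number 3, 10 of the 40 passed, beside 23.2%. Both shares were near the background, so these counts are no result about the clock genes as a group. The 10 became 5 without culture 2 of the WT1 siRNA or of the scrambled siRNA or without scrambled siRNA culture 3, and 4 without reagent culture 2. In number 1, 17 were lower and 3 higher. The higher ones were CSNK2B, PPARA and CDKN1A, by 0.16, 0.16 and 0.32. How all genes divided by direction was not counted. NFIL3 fell by 0.79 on the log2 scale (SE 0.0722, limma adjusted p = 4.51e-05) and NPAS2 by 0.61 (SE 0.0538, adjusted p = 3.77e-05), each lower in 3 of 3 groups and without overlap. TIPIN and BMAL2 also fell, by 0.29 and 0.36 (limma adjusted p = 0.00318 and 0.00408). So did CSNK1D, SIRT1, KDM5A, KMT2A, NAMPT and ALAS1, by 0.31, 0.37, 0.34, 0.24, 0.53 and 0.30. KLF10 fell by 0.75 (adjusted p = 2.17e-05), the kinases GSK3B and CSNK2A1 by 0.57 and 0.50 (adjusted p = 0.000135 and 0.000103), the ligase SIAH2 by 0.53 (adjusted p = 0.000112) and the coregulator SFPQ by 0.54 (adjusted p = 7.79e-05). In number 2 against number 3 the core repressor BHLHE41 rose by 0.46 (SE 0.0772, limma adjusted p = 0.00298). POR, the electron donor of cytochromes P450, fell by 0.77 (SE 0.0921, limma adjusted p = 0.000502). GSK3B, CREBBP and KLF10 rose too, by 0.33, 0.22 and 0.23. CSNK1D, KMT2A, KLF9, CDKN1A and ALAS1 fell, by 0.32, 0.29, 0.59, 0.37 and 0.22. The 3' to 5' difference and GFAP given above moved with these numbers too, and its part was not tested.

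**Figure D5:**
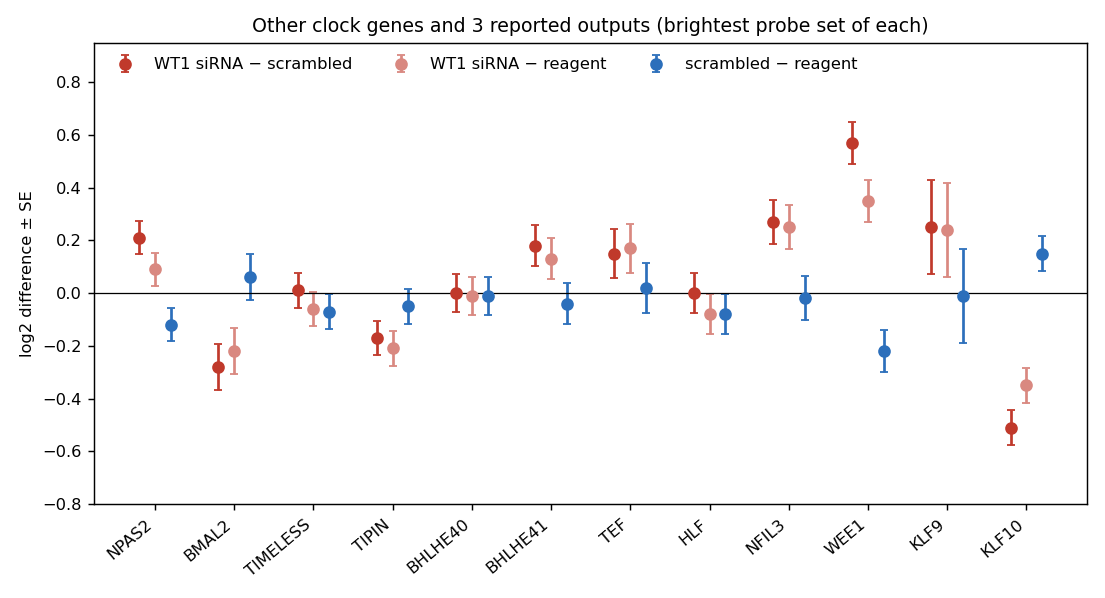
Log2 difference ± SE (vertical axis) in the 3 group comparisons for the 9 measured core loop paralogs and repressors and 3 reported outputs (horizontal axis), each on its brightest probe set. WEE1 lies at 0.57 and KLF10 at −0.51 against the scrambled siRNA; every core loop gene lies between −0.28 and 0.27.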

How the data were processed

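RNA from 9 cultures in 3 groups was measured on 9 one-colour arrays. Per the submitters' processing notes, the authors summarised the scans by RMA (robust multi-array averaging). The deposited values are thus background-corrected, quantile-normalised log2 levels of each probe set. RMA's version, the chip definition and the probes' genome build were not given in the sources used here. As deposited, the table held 22277 probe sets, of which 62 chip controls were left out. Symbols came from the platform annotation (19064 probe sets with 1 symbol, 1043 with several, 2108 with none); 19052 were looked up by gene ID, which changed 0.

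The log2 values were used as deposited. A linear model with a term for group and a fixed block for culture number was fitted to all 9 arrays in limma 3.58.1 (R 4.3.3; lmFit, contrasts.fit, eBayes), tested two-sided, with Benjamini-Hochberg adjustment over all 22215 probe sets and a threshold of 0.05. Groups and numbers came from the sample titles. The group comparisons were defined as paired by number. After each group's mean was removed, the 9 pairs of arrays with the same number in different groups correlated at 0.647 to 0.849 over all probe sets. Pairs with other numbers correlated at −0.611 to −0.0311. Removing group means pushes these below 0 on average when same-number pairs are positive, so they are no separate support. An SE is that of the fitted difference.

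The clock genes, the lists of other clock genes and the motifs were chosen with earlier results of these data known. All probe sets of the 10 genes, WT1, all measured core loop paralogs and repressors, and up to 4 called genes of each other list and comparison were to be named; other genes named were chosen after their values were seen. Alternatives were median centring, leaving out probe sets in the lowest 30% by mean, eBayes with trend and robust settings, leaving out _x_at and _s_at probe sets, no block, no group term, only the groups compared, and leaving out each array or number. The procedure was also run on simulated data with planted differences, drawn from the same additive model with independent noise. The condition set for that run was the direction of the planted differences. It says nothing about the spread between further sets of cultures. Promoter windows and symbols were from RefSeq (GRCh38.p14); the 50 bases after a start were not searched. Figures were drawn with matplotlib 3.10.9.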

Additional observations from a re-analysis of the deposited data

How the results depend on the processing

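Of the 15 clock probe sets, the count past the threshold for the WT1 siRNA against the scrambled siRNA was 2, and 1 with _x_at and _s_at probe sets left out, 0 without the replicate block, 1 with the groups compared alone and 0 to 3 when arrays or numbers were left out. Against reagent it was 2, and 1, 0, 0 and 0 to 2 in the same order. For the scrambled siRNA against reagent it was 0, and 1 with the groups compared alone and 0 to 1 on leaving out arrays. For number 1 against numbers 2 and 3 it was 2, and 1 with dim probe sets left out, 1 without _x_at and _s_at probe sets and 2 to 4 on leaving out arrays. For number 2 against number 3 it was 3, and 1 without _x_at and _s_at probe sets. Of the 40 other clock genes, 2 passed against the scrambled siRNA, 1 without _x_at and _s_at probe sets, 0 without the replicate block and 0 to 3 on leaving out arrays. Against reagent 1 passed, 3 with trend and robust eBayes, 0 without _x_at and _s_at probe sets, 0 without the block, 0 with the groups compared alone and 0 to 1 on leaving out arrays. For the scrambled siRNA against reagent 0 passed, and 1 (ALAS1) with trend and robust eBayes. Between numbers the counts of 20 and 10 became 12 and 3 without _x_at and _s_at probe sets, and the 10 became 6 without a group term and 4 to 13 on leaving out arrays. Fewer probe sets or arrays enter the fits that leave some out; for the other settings the cause was not tested. No called log2 difference of the 15 clock probe sets changed sign.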

Other observations

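Each culture gave a single array, and the time from transfection to lysis is not stated, so no phase or rhythm of the clock can be read from these values. Levels are not comparable between probe sets. Where a gene had more than 1 probe set (BMAL1, CLOCK, DBP, PER2 and RORA), these differed in brightness, and for PER2 they differed in which comparison set them apart: groups for the brighter 205251_at and culture numbers for the dim 208518_s_at.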
